A study of Mus musculus with 11 samples.

Results

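The comparison set mantle cell lymphoma (MCL, 3 tumours) against Burkitt lymphoma (BL, 4 tumours), 7 of the 11 tumours of the series, chosen by the tumour origin in the labels. The other 4, plasma cell lymphomas (PCL), entered the fit for its estimate of spread and are given beside a few genes. All 7 tumours came from lymph nodes of mice of the Black 6 strain with the genotype c-myc-3'RR/p53+/-, so every animal carried a c-myc transgene driven by the immunoglobulin heavy chain 3' regulatory region (3'RR), which is active in cells of the B lineage, and 1 functional p53 allele. The series has no normal B cells or lymph nodes, and no label gives an age or says whether the tumours are from separate mice, so a p-value here reflects the spread between samples alone, part of which may be technical. The MCL arrays shared 1 slide and the BL arrays another, so lymphoma type and slide cannot be told apart in any difference below.

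Mantle cell lymphoma is a tumour of mature B cells that resemble those of the mantle around a lymphoid follicle, and in patients it is known for high cyclin D1 and often for CD5 and SOX11. Burkitt lymphoma is a fast-growing tumour with the features of germinal centre B cells, such as BCL6 and CD10 (the gene Mme), in which a chromosomal translocation puts MYC under immunoglobulin control and mutations of ID3 or TCF3 are common. In this mouse model the c-myc transgene is shared by both types, so the comparison asks how tumours with the same driver but a different diagnosis differ.

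RNA was labelled with one dye, and each tumour was read on 1 array of 60-base probes. Levels are log2 signals relative to the array's 75th percentile, so a level of 0 is the signal of a probe brighter than 75% of the others, and a difference of 1 is 2-fold. Levels of different probes are not compared with each other. Probes had to be well above background on all 7 arrays, which 20425 did, and they stood for 16248 genes, 11382 of them named protein-coding genes. Between 59.1% and 62.8% of the spots of these arrays were well above background, and 0 were saturated. MCL tumours correlated with each other at a mean of 0.955 over these genes, BL tumours at 0.966, and MCL with BL tumours at 0.956 (Pearson, over genes of the same arrays, so no test is given). The mean within MCL was thus no higher than that between the types. Xist RNA, which is made from the inactive X chromosome of female cells, was well above background in 2 MCL and 2 BL tumours. Eif2s3y, a Y-linked gene, was so in 1 MCL and 2 BL tumours, at -4.99 in MCL2 and -0.004 and 1.55 in BL1 and BL2. Ddx3y, also Y-linked, was well above background in 0 MCL and 2 BL tumours. Both types thus held tumours with Xist, while a Y-linked signal in MCL rested on 1 dim value.

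MCL tumours had higher signals than BL tumours for many dim genes and lower signals for few. Of the 16248 genes, 1182 were called (7.27%), 1127 higher in MCL (6.94%) and 55 lower (0.339%), with limma at an adjusted p under 0.05. Differences are given as MCL minus BL in log2 units, with the standard error after ±. Of the called genes, 560 differed by at least 2-fold, 533 higher and 27 lower. Every MCL array lay above, or every one below, all BL arrays in 1177 of the 1182, which held for 17.5% of all genes, 13.5% higher and 4.03% lower in MCL. Among the named protein-coding genes, 539 were higher and 50 lower (5.17% called). The count depended on the fit: it was 450 with the 7 arrays alone, 686 with the authors' values and 122 after normexp background correction, with 438, 655 and 121 of these genes among the 1182. Without MCL1 it was 692, without MCL2 739 and without BL2 724.

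The calls lay mostly among dim genes and followed the base composition of the probe. Of the 4062 dimmest genes 604 were higher and 17 lower in MCL (15.3% called), and of the 4062 brightest 65 were higher and 7 lower (1.77%). The median difference of the dimmest genes was 0.33, but -0.12 after normexp correction and 0.07 in the authors' values. The software's median local background was 26 to 27.5 intensity units on the MCL arrays and 22 to 24 on the BL arrays, and its part in the result was not tested. Probes with at most 8 cytosines among their 60 bases were called higher in 3.88% of genes, those with 17 or 18 in 13.8%, and those with 19 or more in 21.2%. Genes called higher had a median of 16 cytosines in the probe and those not called 12, and a run of CCCC was present in 27.4% and 12.2% of these probes. The share called higher climbed with cytosines in the 3 dimmer of 4 equal bins of level (from 7.36% to 27.2%, 6.44% to 28.5% and 1.69% to 15.7%) and little in the brightest, where probes with 19 or more cytosines were called higher in 3.74% of genes. On the 3 MCL arrays the median of genes whose probes hold 19 or more cytosines was 0.23, 0.29 and 0.10 above the genes' own 7-array means. On the BL arrays it was -0.16, -0.25, -0.02 and -0.25, so BL3 lay apart from the other BL arrays. Chosen after the data were seen, a setting that centred every array within bins of cytosine content and level left 532 genes called, 465 higher and 67 lower, of which 490 were among the 1182. The part of probe composition in the excess of genes higher in MCL was not tested.

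**Figure D1:**
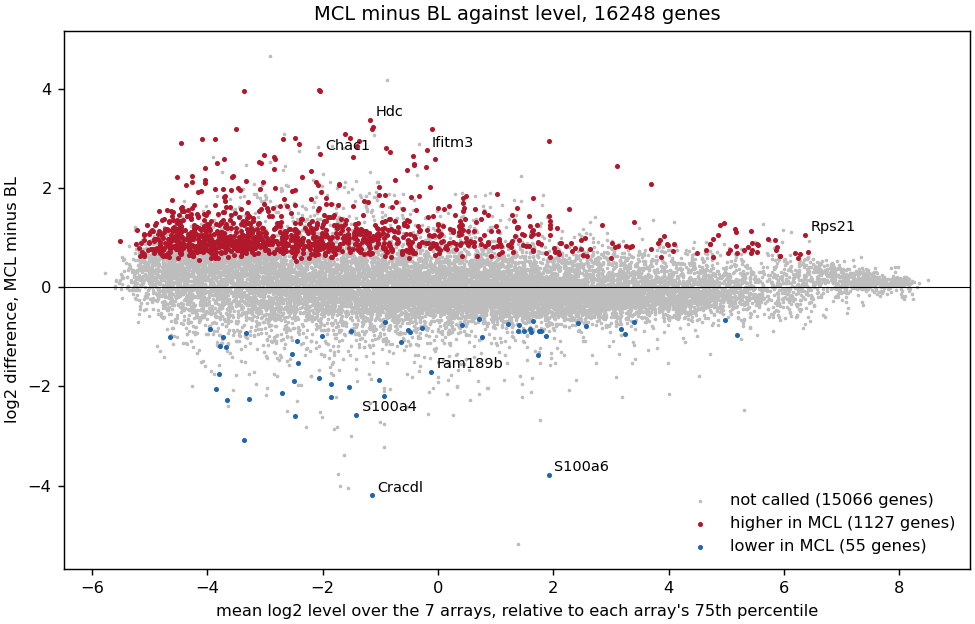
Difference between MCL and BL (y axis, log2, MCL minus BL) against the mean level over the 7 arrays (x axis, log2 relative to each array's 75th percentile), 1 point per gene. Genes called higher (1127) crowd at the dim left side, and the 55 lower genes are spread along the axis.

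**Figure D2:**
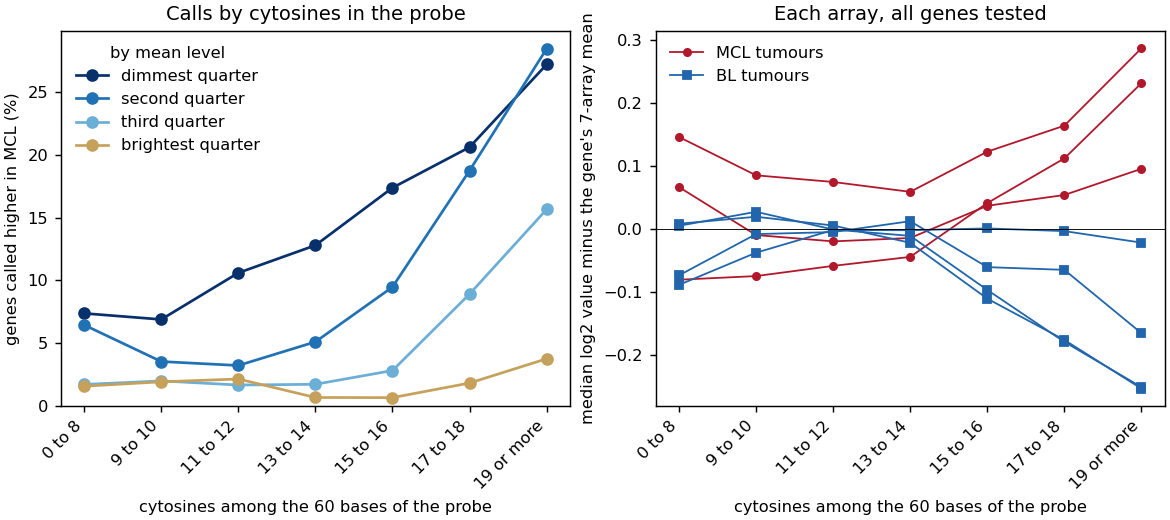
Left, the share of genes called higher in MCL (y axis, %) by the number of cytosines among the 60 bases of the probe (x axis), 1 line for each of 4 equal bins of level; it climbs to 28.5% in the second dimmest bin and stays at or under 3.74% in the brightest. Right, the median log2 value of all genes of a bin relative to their own means, 1 line per array; at 19 or more cytosines the MCL arrays lie above 0 and the BL arrays below it.

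The following, chosen by their cytosine count to show what probes at either end of that scale look like, are the 30 bases at the 5′ end of the probes of 5 list members called higher whose probes hold 20 or more cytosines, with runs of at least 3 cytosines in capitals.
Dvl3: CCCCCaggagCCCCtccagggcgtgacctg
Tle1: aaatgcagcctgttccttttCCCCCtgatg
Ccl19: aagctcacttgcacttggctcctgaaCCCC
Elane: gctCCCCCCtctaccagagacctctccatt
Prf1: actgcctcagCCCtgcaatgCCCgaaagct
Among the genes lower in MCL that are described here, the 3 with the fewest cytosines in the probe held 7, 7 and 8 of 60 bases, with no such run in this stretch. The genes called lower were not cytosine-poor as a group: their probes held a median of 13 cytosines, and 21.8% had a run of CCCC.
Armc3: cgcgtgttttctaagaggggctttagccga
Cracdl: gagaaggagaggaagggacgtggcagggtt
Gda: ctgtatgattttgcttattgttaatgtact
For Elane and Prf1 the call held in every setting tried, including the centring on cytosine content and level, with adjusted p of 0.0263 and 0.00739. For Dvl3, Tle1 and Ccl19 it did not, at 0.0667, 0.17 and 0.0692.

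Among genes lower in MCL, the calcium-binding proteins S100a6 and S100a4 stood out. S100a6, which is expressed in many proliferating cell types, had levels of 1.21, -1.55 and -0.38 in MCL1 to MCL3 and 3.01, 4.22, 3.37 and 3.57 in BL1 to BL4. All 3 MCL tumours lay below every BL tumour, although MCL1 was 1.59 log2 units above the next MCL tumour. The difference of -3.78 ± 0.52 was a 13.7-fold lower signal (limma, adjusted p = 0.00311), and it was called in all 25 other settings. The PCL tumours had a mean of 3.26, close to the BL level. S100a4, known for its part in cell motility and metastasis, had levels of -1.32, -2.89 and -4.44 in MCL1 to MCL3 and 0.25, -0.82, -0.34 and -0.33 in BL1 to BL4. Its difference was -2.57 ± 0.65 (adjusted p = 0.039), and a second probe of the gene gave -1.89. The S100a4 groups did not overlap, but the call was lost on leaving out any of 8 of the 11 tumours (adjusted p of 0.117 without MCL3).

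Both genes lie in the S100 cluster of chromosome 3, their starts 9124 bases apart and on the same strand in RefSeq on GRCm38.p6, S100a4 before S100a6. The 2 genes did not rank the tumours alike. Of the BL tumours, BL2 had the highest S100a6 and the lowest S100a4. The 250 bases before each start are printed because both genes were lower in MCL, with the letters TATAAA, the TATA box, in capitals. These letters were searched for on both strands and are present in 12.4% of 32851 such windows.
S100a4 (chr3:90603520-90603769, + strand): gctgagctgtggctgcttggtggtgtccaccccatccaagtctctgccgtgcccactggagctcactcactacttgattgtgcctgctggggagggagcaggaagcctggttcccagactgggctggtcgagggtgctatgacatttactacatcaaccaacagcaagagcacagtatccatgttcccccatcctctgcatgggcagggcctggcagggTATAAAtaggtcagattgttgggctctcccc
S100a6 (chr3:90612644-90612893, + strand): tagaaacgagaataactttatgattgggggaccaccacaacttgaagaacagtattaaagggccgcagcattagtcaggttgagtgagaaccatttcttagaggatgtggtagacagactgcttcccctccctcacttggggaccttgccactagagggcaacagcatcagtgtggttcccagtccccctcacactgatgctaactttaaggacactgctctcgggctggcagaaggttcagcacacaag
The S100a4 window holds them once, 31 to 26 bases before the start, and the S100a6 window does not hold them. Of the 20 S100 and annexin genes tested, 2 fell and 1 rose, S100a16, with levels of 1.99, 3.34 and 2.65 in MCL1 to MCL3 and 1.69, 1.75, 1.47 and 0.74 in BL1 to BL4. Its difference of 1.25 ± 0.33 (adjusted p = 0.0489) was lost in 21 of 25 other settings (adjusted p = 0.154 without MCL2). The share called was 15%, against 7.27% of all genes. The median difference over the list was -0.31, against 0.02 over all genes, with 9 of 20 positive. With 1 tumour left out it lay between -0.25 and -0.05, the latter without BL2.

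Genes of cilia and of the cytoskeleton were next. Ttll9, a member of the tubulin ligase family that adds glutamate to tubulin in cilia, had levels of -4.43, -3.89 and -3.60 in MCL1 to MCL3 and -1.98, -0.60, -1.08 and -1.81 in BL1 to BL4. The MCL values all lay at least 1.62 log2 units below the lowest BL value, with a difference of -2.61 ± 0.42 (adjusted p = 0.00558). Armc3, an armadillo repeat protein of sperm and ciliated cells, had levels of -2.28, -2.003 and -2.29 in MCL1 to MCL3 and -0.20, -0.31, 0.07 and 0.45 in BL1 to BL4, with a range of 0.29 between the MCL tumours. It differed by -2.19 ± 0.40 (adjusted p = 0.00856). Cracdl, a relative of a capping protein inhibitor, had levels of -4.96, -3.12 and -2.56 in MCL1 to MCL3 and 1.93, -1.201, 1.04 and 0.82 in BL1 to BL4, and its difference was the largest among the genes called lower (-4.19 ± 1.00, adjusted p = 0.029). The BL2 and MCL3 values lay only 1.36 apart, and the call was lost without any of 5 tumours (adjusted p = 0.115 without MCL1). Arpc4, a subunit of the Arp2/3 complex that branches actin filaments, had levels of 1.96, 2.14 and 1.95 in MCL1 to MCL3 and 2.75, 2.65, 2.77 and 2.77 in BL1 to BL4. The 4 BL tumours ranged over 0.12, and the difference was -0.72 ± 0.14 (adjusted p = 0.0102). A second probe of Arpc4 gave -0.69. Ttll9 kept its call in every setting. Armc3 and Arpc4 kept theirs with any tumour left out, but Armc3 lost it in 1 of 24 other settings and Arpc4 in 3 of 25. For Arpc4 the adjusted p (limma) was 0.103 after normexp correction and 0.0659 with the 7 arrays alone. It was 0.0656 with the replicate number as a block.

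Maged1, an adaptor of p75 neurotrophin receptor signalling, was at -4.93, -5.12 and -4.81 in MCL1 to MCL3 and -1.96, -2.81, -2.68 and -3.30 in BL1 to BL4. The MCL values lay within 0.31 of each other and below every BL value (difference -2.26 ± 0.31, adjusted p = 0.00268). Fam189b, a membrane protein gene, was at -1.04, -1.23 and -0.99 in MCL1 to MCL3 and 0.54, 0.04, 0.89 and 1.01 in BL1 to BL4. Its MCL tumours were again close together, and the difference was -1.71 ± 0.23 (adjusted p = 0.00259). Acsbg1, an acyl-CoA synthetase that activates long-chain fatty acids, was at -2.58, -3.16 and -2.33 in MCL1 to MCL3 and -0.0015, -0.31, -0.80 and -1.58 in BL1 to BL4, with a difference of -2.02 ± 0.35 (adjusted p = 0.00742). These 3 genes, S100a6, Ttll9 and the unnamed transcript 1700121C10Rik (-2.26 ± 0.27, adjusted p = 0.00157) were called lower under each background treatment and in every other setting. The PCL means were -0.77 for Maged1, 0.39 for Fam189b and -0.44 for Acsbg1, nearer to the BL than to the MCL values. This did not hold for all genes lower in MCL. The PCL mean of Ttll9 was -3.10, between an MCL mean of -3.97 and a BL mean of -1.37. Those of Arpc4 (1.60), Stard10 (-3.47) and Tgfb1 (-0.35), the last 2 described below, lay under the means of both types.

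Hp, which encodes the haemoglobin scavenger haptoglobin, had levels of -3.05, -3.83 and -3.83 in MCL1 to MCL3 and -1.96, -2.11, -0.98 and -1.70 in BL1 to BL4 (difference -1.88 ± 0.40, adjusted p = 0.0171; 0.0685 without MCL2). Col7a1, the collagen of anchoring fibrils, had levels of -3.14, -3.58 and -3.20 in MCL1 to MCL3 and -2.06, -1.39, -2.04 and -1.59 in BL1 to BL4 (difference -1.54 ± 0.31, adjusted p = 0.0136; 0.0585 without MCL2). In both genes the MCL tumours lay apart from the BL tumours by 0.94 log2 units for Hp and 1.08 for Col7a1. Serpinf1, the anti-angiogenic factor PEDF, ranged from -3.38 to -2.87 in MCL and from -2.47 to 0.77 in BL, so the BL tumours varied widely (-2.21 ± 0.59, adjusted p = 0.0494; 0.137 without MCL2). Tgfb1, the cytokine TGF-beta 1, had levels of 0.29, 0.33 and 0.40 in MCL1 to MCL3 and 0.89, 1.21, 0.79 and 1.03 in BL1 to BL4, and differed by -0.65 ± 0.16 (adjusted p = 0.0302; 0.0978 without MCL1). The MCL tumours spanned 0.11 log2 units for this gene and lay below the lowest BL tumour. Other genes lower in MCL were the guanine deaminase Gda (-2.06 ± 0.50), the lipid transfer protein Stard10 (-1.83 ± 0.47), Ccdc125 (-1.88 ± 0.50) and Ggnbp1 (-3.08 ± 0.79), with adjusted p from 0.0324 to 0.0456. Each of these 4 lost its call in at least 5 of the 11 fits without 1 tumour, with adjusted p of 0.119 for Gda without MCL2, 0.155 for Stard10 without MCL1, 0.107 for Ccdc125 without BL4 and 0.122 for Ggnbp1 without MCL3.

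**Figure D3:**
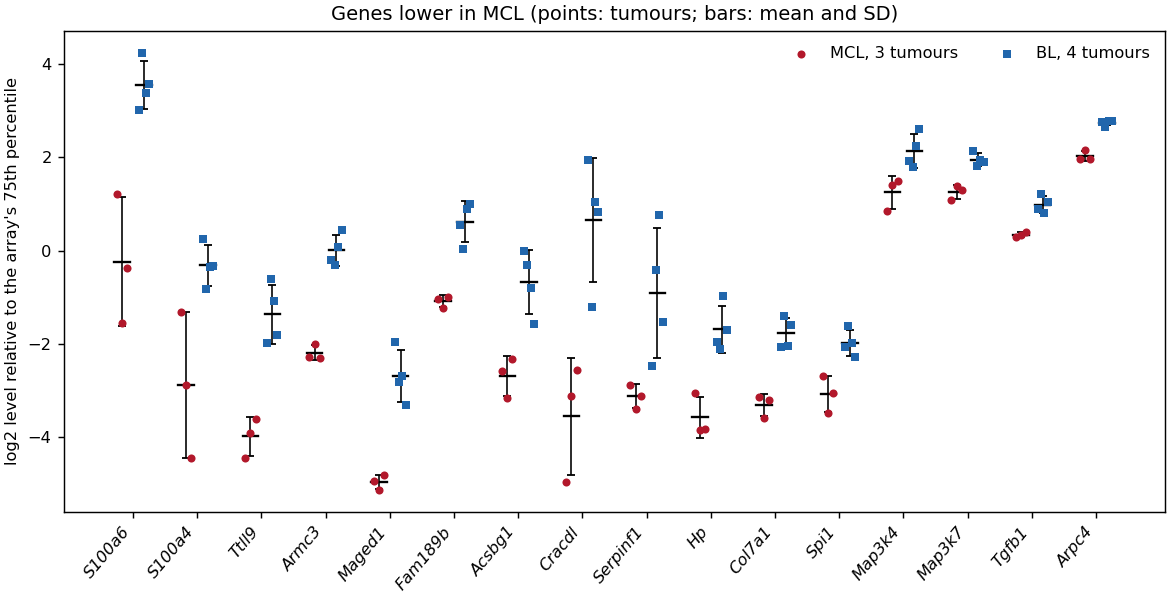
Level of 16 genes lower in MCL (y axis, log2 relative to the array's 75th percentile), 1 point per tumour, with the mean and SD of each type as black bars. In every gene the 3 MCL tumours lie below the 4 BL tumours, which was a condition for choosing the genes with the largest differences. For S100a6 the MCL tumours range from -1.55 to 1.21 and the BL tumours from 3.01 to 4.22.

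Of the 61 genes tested of the MAP kinase cascade and its phosphatases, 2 fell and 1 rose, and 37 had a negative and 24 a positive difference. The share called was 4.92%, against 7.27% of all genes (6.94% higher and 0.339% lower). Map3k7, the kinase TAK1 that links TGF-beta, Toll-like and TNF receptors to NF-kB and JNK, had levels of 1.09, 1.37 and 1.29 in MCL1 to MCL3 and 2.13, 1.80, 1.93 and 1.90 in BL1 to BL4. The groups were 0.43 apart, and the difference of -0.69 ± 0.15 (adjusted p = 0.0178) was joined by -0.42 and -0.61 from 2 other probes; without MCL1 the adjusted p was 0.0762. Map3k4, an upstream kinase of p38 and JNK, had levels of 0.84, 1.40 and 1.49 in MCL1 to MCL3 and 1.92, 1.78, 2.23 and 2.60 in BL1 to BL4 (difference -0.89 ± 0.23, adjusted p = 0.0436; 0.162 without MCL1). Nf1, the GTPase activator that switches off Ras, was higher in MCL, at -0.17, -0.11 and -0.40 in MCL1 to MCL3 and -0.90, -0.98, -0.73 and -1.02 in BL1 to BL4 (0.68 ± 0.16, adjusted p = 0.0293; 0.0981 without MCL2). The median difference of the list was -0.18, and -0.08 without BL2. Of the 13 MAP3 kinases tested, a family chosen after its values were seen, 7 had a negative and 6 a positive difference, with a median of -0.35 that was -0.18 without MCL2.

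Spi1, which encodes PU.1, a transcription factor of myeloid and B cells, was the 1 of 20 ETS factors that fell, at -2.69, -3.48 and -3.04 in MCL1 to MCL3 and -2.06, -1.62, -1.97 and -2.27 in BL1 to BL4. All MCL tumours were below all BL tumours, by 0.42 at the least, and the difference was -1.09 ± 0.28 (adjusted p = 0.0414; 0.142 without MCL2). PU.1 is also abundant in macrophages, and the summed linear level of 23 macrophage and monocyte markers ranged from 31.4 to 110.2 in MCL and from 24.8 to 44.9 in BL, with MCL1 the highest. Of the 14 such markers tested 10 had a negative difference, with a median of -0.36 that was -0.93 without MCL1 and -0.05 without MCL2, and their part in the Spi1 difference was not tested. Tspan5, a tetraspanin, fell among 33 integrins and tetraspanins (-1.01 ± 0.24, adjusted p = 0.0295; 0.108 without MCL3). Sf3b3, a subunit of the U2 snRNP that recognises the branch point, was the 1 of 71 splicing factors that fell (-0.66 ± 0.17, adjusted p = 0.0376; 0.137 without MCL1). The share called lower, from 1 gene in each list, was 5% for the ETS factors and 3.03% for the integrins and tetraspanins. It was 1.41% for the splicing factors, against 0.339% of all genes.

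Among genes higher in MCL, the named gene with the largest difference was Hdc, the enzyme that makes histamine from histidine. Its levels were 1.57, 1.12 and -0.44 in MCL1 to MCL3 and -2.94, -4.34, -2.09 and -1.14 in BL1 to BL4. All MCL tumours lay above all BL tumours, with a difference of 3.38 ± 0.72, a 10.4-fold higher signal (adjusted p = 0.0169; 0.0736 without MCL1). Mast cells and basophils are the classical source of histamine, and of 11 markers of these cells Cpa3, Fcer1a, Gata2, Mcpt8 and Ms4a2 were not well above background on any of the 7 arrays. The summed level of the list, which includes Hdc, was 1.18 to 3.63 in MCL and 0.53 to 0.88 in BL.

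Ifitm3, an interferon-induced membrane protein that blocks virus entry, had levels of 3.15, 0.26 and 0.74 in MCL1 to MCL3 and -0.96, -1.42, -1.05 and -2.09 in BL1 to BL4. MCL1 exceeded the next MCL tumour by 2.40 log2 units, yet MCL2 and MCL3 were still above every BL tumour (2.76 ± 0.63, adjusted p = 0.0235; 0.0648 without BL4). Iigp1, an interferon-inducible GTPase, had levels of 0.78, 0.02 and 0.27 in MCL1 to MCL3 and -0.83, -1.10, -0.90 and -0.68 in BL1 to BL4 and was the other called gene of 41 interferon-stimulated genes tested. Its difference of 1.24 ± 0.21 (adjusted p = 0.00636) held in every setting. The 2 calls were 4.88% of the list, against 6.94% of all genes called higher. The other members moved mainly with 1 tumour: the median of the list relative to the genes' own means was 1.83 in MCL1, -0.91 in MCL2 and -0.53 in MCL3, and -0.13, -0.75, -0.12 and 0.30 in BL1 to BL4. The median difference of the list, 0.26, was -0.62 without MCL1.

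Chac1, which degrades glutathione and is a target of the stress factor Atf4, had levels of 0.13, -1.67 and 0.01 in MCL1 to MCL3 and -3.27, -2.58, -3.02 and -3.92 in BL1 to BL4. The lowest MCL tumour was 0.91 above the highest BL tumour, and the difference was 2.69 ± 0.43, or 6.44-fold (adjusted p = 0.00558), called in every setting. Trib3, a pseudokinase also induced by Atf4, was at 1.12, -2.96 and 1.23 in MCL1 to MCL3 and -2.21, -2.92, -3.70 and -3.41 in BL1 to BL4, high in MCL1 and MCL3, and did not pass the test (2.85 ± 0.86, adjusted p = 0.0797). Sesn2, a brake on mTORC1 signalling, was at 1.19, 0.04 and 0.57 in MCL1 to MCL3 and -0.71, -0.49, 0.02 and -0.51 in BL1 to BL4, with a difference of 1.02 ± 0.27 (adjusted p = 0.0451) that was lost in 22 of 25 other settings (adjusted p = 0.155 without MCL1). MCL2 was the lowest MCL tumour for all 3 genes. Chac1 was the 1 of 64 genes of the unfolded protein response and secretory pathway that passed (1.56%, against 7.27% of all genes). The list's median was 0.02, equal to that of all genes.

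The 250 bases before the Chac1 start in RefSeq (GRCm38.p6) are printed because Atf4 and C/EBP factors are known to read the letters TGATGNAA, present on either strand in 3.45% of the 32851 windows; capitals mark the match.
Chac1 (chr2:119350992-119351241, + strand): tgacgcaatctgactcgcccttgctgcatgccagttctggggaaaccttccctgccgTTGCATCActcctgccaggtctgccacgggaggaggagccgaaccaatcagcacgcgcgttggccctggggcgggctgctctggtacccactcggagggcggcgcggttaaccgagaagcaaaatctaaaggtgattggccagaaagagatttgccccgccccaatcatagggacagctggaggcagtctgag
The window holds 1 match, on the minus strand, 193 to 186 bases before the start.

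Rgcc, a regulator of cell cycle progression that responds to complement, had levels of 0.60, 1.34 and 0.48 in MCL1 to MCL3 and -2.35, -0.81, -1.40 and -1.65 in BL1 to BL4. It differed by 2.36 ± 0.43, a 5.12-fold higher signal (adjusted p = 0.00836), called in every setting. Lyar, a nucleolar protein needed for ribosome assembly, had levels of -1.56, -1.27 and -1.24 in MCL1 to MCL3 and -3.40, -3.84, -4.23 and -4.25 in BL1 to BL4 (difference 2.58 ± 0.24, adjusted p = 0.000453). Its groups were separated by 1.84 log2 units, against a range of 0.32 within MCL. Shb, an SH2 adaptor of antigen and growth factor receptors, was at -1.57, -2.05 and -1.37 in MCL1 to MCL3 and -4.90, -4.43, -2.93 and -4.49 in BL1 to BL4 (2.52 ± 0.40, adjusted p = 0.00536), and its PCL mean of -1.36 was at the MCL level. Aurkb, the kinase of chromosome segregation, was at -1.91, -2.56 and -1.86 in MCL1 to MCL3 and -3.93, -3.35, -5.37 and -4.33 in BL1 to BL4 (2.14 ± 0.44, adjusted p = 0.0152; 0.0606 without MCL1). It was the 1 of 47 mitosis and spindle genes that passed (2.13%, against 7.27% of all genes). Of the 47, 39 had a negative difference, and the list's median was -0.27. Lyar also held in every setting, and Shb lost its call under normexp correction (adjusted p = 0.0916).

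Single genes of granulocytes and of cytotoxic cells were higher. Elane, the neutrophil elastase, had levels of 0.44, 0.05 and 0.20 in MCL1 to MCL3 and -1.05, -1.09, -0.93 and -1.43 in BL1 to BL4 (difference 1.36 ± 0.18, adjusted p = 0.00278). Prf1, the pore-forming perforin of cytotoxic lymphocytes, had levels of 0.84, 0.72 and 0.41 in MCL1 to MCL3 and -0.49, -0.62, -0.30 and -0.58 in BL1 to BL4 (difference 1.15 ± 0.18, adjusted p = 0.00536). Both groups were tight and did not overlap. Of 6 granulocyte genes tested Elane was the 1 called (16.7%, against 7.27% of all genes). Of the 6, 4 had a negative difference, and the list's median of -0.59 was 0.10 without MCL1. The summed level of the 15 granulocyte markers was 78.5 to 94.2 in MCL and 80.3 to 98.0 in BL. Of 5 genes tested for NK and cytotoxic cells Prf1 was the 1 called (20%, against 7.27% of all genes). Of the 5, 4 had a positive difference and 2 had an unadjusted p under 0.05 (limma). The median of the 5 was 0.37, and 0.17 to 0.67 with 1 tumour left out. The summed level of the 13 markers on the array was 3.23 to 7.80 in MCL and 2.25 to 10.9 in BL. In bulk tissue fewer cells of a type and less RNA per cell cannot be told apart. Both probes hold 20 cytosines of 60.

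Cd4, the co-receptor of helper T cells, was at 2.19, 2.05 and 1.63 in MCL1 to MCL3 and 1.01, 0.84, 1.19 and 0.93 in BL1 to BL4 (0.96 ± 0.18, adjusted p = 0.0108; 0.0502 without MCL1). Foxp3, the factor of regulatory T cells, was at -2.65, -2.51 and -2.88 in MCL1 to MCL3 and -4.20, -4.37, -3.23 and -4.01 in BL1 to BL4 (1.28 ± 0.33, adjusted p = 0.0395; 0.12 without MCL2). They were the 2 of 12 T cell genes called (16.7%, against 7.27% of all genes). Of the 12, 8 had a negative difference, with a median of -0.35 that was 0.08 without MCL3 and -0.14 without MCL2. The summed level of 19 T cell markers was 18.03 to 48.0 in MCL and 30.6 to 45.9 in BL, so it did not separate the types. Kdr, the VEGF receptor of endothelium (0.82 ± 0.21, adjusted p = 0.0401), and Ccl19, a chemokine of lymph node stroma (1.29 ± 0.21, adjusted p = 0.00613), were the 2 called of 7 stromal and endothelial genes tested. That was 28.6% of those tested, against 7.27% of all genes. Of the 22 such markers on the array, Lum, Pdgfra, Tek and Tie1 were not well above background on any of the 7 arrays. The summed level was 8.35 to 9.20 in MCL and 5.19 to 9.999 in BL. Zbtb46, a factor of classical dendritic cells (0.84 ± 0.19, adjusted p = 0.0235), was the 1 called of 8 dendritic cell genes (12.5%, against 7.27% of all genes). Kdr lost its call without any of 7 tumours (adjusted p = 0.136 without MCL2) and Zbtb46 without any of 5 (0.0795 without MCL2).

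Receptors of the B cell surface and of innate recognition gave single calls. Cnr2, the cannabinoid receptor that positions B cells in the spleen, was at 2.42, 2.38 and 2.83 in MCL1 to MCL3 and 1.08, 1.32, 1.62 and 1.95 in BL1 to BL4 (1.05 ± 0.23, adjusted p = 0.0184; 0.0722 without MCL3). Tlr9, the sensor of unmethylated DNA, was at 1.10, 1.15 and 0.86 in MCL1 to MCL3 and 0.43, 0.26, 0.52 and 0.39 in BL1 to BL4 (0.64 ± 0.15, adjusted p = 0.0315; 0.104 without MCL1). For both genes the highest BL tumour lay under the lowest MCL tumour. Of 20 Fc receptor and related genes, Fcrls (1.15 ± 0.19, adjusted p = 0.00653) and the inhibitory receptor Cd300a (1.47 ± 0.26, adjusted p = 0.00751) were higher. Of 25 TNF receptors and ligands, Tnfrsf11a, the receptor RANK (0.66 ± 0.15, adjusted p = 0.024; 0.0825 without MCL2), and Tnfrsf14, the receptor HVEM (0.94 ± 0.19, adjusted p = 0.0129; 0.0545 without MCL1), were higher. A second Tnfrsf14 probe gave -0.76, so the direction of this gene is not settled. The list's median was 0.56, but -0.06 without MCL1. The share called higher was 10% for the Fc receptor list and 8% for the TNF list, against 6.94% of all genes.

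In the Wnt and TGF-beta pathways 2 of 40 genes rose and 1, Tgfb1, fell (7.5% called, against 7.27% of all genes). Dvl3, a transducer of Wnt signals, differed by 0.89 ± 0.23 (adjusted p = 0.0456; 0.15 without MCL2), with 27 cytosines in its probe. Tle1, a Groucho corepressor, differed by 0.98 ± 0.15 (adjusted p = 0.00436), while a second probe gave -1.48 and the mean of both -0.25.

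Rps21, a protein of the small ribosomal subunit, was the brightest named gene described here that rose, at 6.76, 7.35 and 6.80 in MCL1 to MCL3 and 5.71, 5.87, 6.14 and 5.96 in BL1 to BL4. Its difference of 1.05 ± 0.19 (adjusted p = 0.00855) held with any tumour left out, and its probe holds 6 cytosines. Of the 77 cytosolic ribosomal protein genes it was the 1 called, and 68 had a positive difference, with a median of 0.13. That median was 0.04 in the authors' values and 0.03 after quantile normalization. E2f4, a repressor of cell cycle genes, was the 1 of 33 cyclin, CDK and related genes called (0.78 ± 0.15, adjusted p = 0.0112; 0.0515 without MCL1). The share called of these 33 was 3.03%, against 7.27% of all genes. Trp73, the p53 relative (0.81 ± 0.18, adjusted p = 0.0186; 0.0755 without MCL2), and Sesn2 were the 2 of 30 p53 pathway genes that rose. That was 6.67% of the list, against 6.94% of all genes called higher. Tet3, an enzyme that oxidises methylcytosine, was called at 0.59 ± 0.16 (adjusted p = 0.0485), but other probes gave -0.21 and 0.16 and 23 of 24 other settings lost the call. Dntt, the terminal transferase of precursor B cells, was called at 0.72 ± 0.19 (adjusted p = 0.0445) from levels under -3.5 in every tumour and lost its call in 22 of 24.

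**Figure D4:**
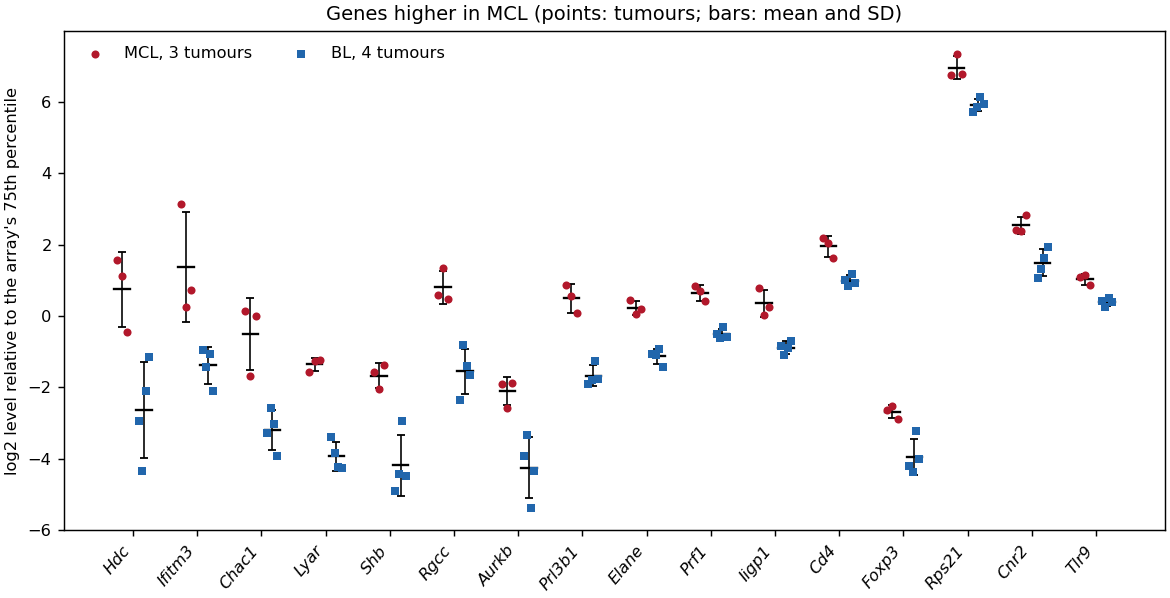
Level of 16 genes higher in MCL (y axis, log2 relative to the array's 75th percentile), 1 point per tumour, with the mean and SD of each type as black bars. The 3 MCL tumours lie above the 4 BL tumours in every gene, which was a condition for choosing the genes with the largest differences. Ifitm3 is highest in MCL1 at 3.15, while Elane, Prf1 and Rps21 are tight in both types.

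Prl3b1, a placental lactogen, had levels of 0.88, 0.55 and 0.07 in MCL1 to MCL3 and -1.89, -1.78, -1.25 and -1.75 in BL1 to BL4 (2.17 ± 0.22, adjusted p = 0.000755) and held in every setting. Olfr212, an olfactory receptor (2.24 ± 0.25, adjusted p = 0.00111), Npy4r, a neuropeptide receptor (1.99 ± 0.24, adjusted p = 0.00171), and Ppp1r14bl, a phosphatase inhibitor gene (2.39 ± 0.15, adjusted p = 3.25e-05), lost their calls only after normexp correction. H2-M11, a non-classical MHC class I gene (2.07 ± 0.42, adjusted p = 0.014), the sulphotransferase Chst1 (2.05 ± 0.53, adjusted p = 0.0405; 0.104 without BL2), the formin Fmn1 (2.11 ± 0.54, adjusted p = 0.0413; 0.145 without MCL1) and the muscle enzyme Pgam2 (1.98 ± 0.47, adjusted p = 0.0275; 0.0655 without BL2) were highest in MCL1. Several of the smallest adjusted p belonged to probes without a gene name. The transcript NAP114307-1 was at 1.75, 1.77 and 1.66 in MCL1 to MCL3 and -1.40, -1.65, -1.44 and -1.37 in BL1 to BL4, with a difference of 3.19 ± 0.16 (adjusted p = 1.57e-05). The probes A_55_P2049976 (3.95 ± 0.21, adjusted p = 1.67e-05) and A_55_P2064412 (2.57 ± 0.16, adjusted p = 3.25e-05) were as clearly separated. NAP114307-1 and both probes held in every setting, with 9, 11 and 10 cytosines of 60.

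Members of several families that B cells are not known to use rose. These families were chosen after their values had been seen. Of 1101 olfactory receptor genes on the array, 64 passed the filter, 25 were called higher and 0 lower, and all 64 had a positive difference, with a median of 0.69 (limma; 6.94% of all genes were called higher). By tumour the median was 0.40, 0.52 and 0.31 in MCL1 to MCL3 and -0.24, -0.41, -0.17 and -0.44 in BL1 to BL4, relative to the genes' own means. Of 17 keratin-associated protein genes 12 were higher (median 0.87), of 12 keratins 5 (0.92), of 13 vomeronasal receptors 4 (0.66) and of 27 cytochromes P450 8 (0.53), with 0 lower in each. The median level of the olfactory receptors was -4.28, among the dimmest genes tested, and their probes hold a median of 16 cytosines. Their median difference was 0.04 after normexp correction, 0.28 in the authors' values and 0.34 with arrays centred on cytosine content and level. That of the keratin-associated proteins was 0.57, 0.60 and 0.56. A family of ordinary cellular genes, the 304 zinc finger genes named Zfp, had 20 higher, 0 lower and a median of 0.05. Its median level of -0.89 and its median of 12 cytosines differ from those of the olfactory receptors, so the families are not matched. Of the 4062 dimmest genes 604 were called higher, with a median difference of 0.33. The part of level and probe composition in the differences of these families was not tested. Of 5 subunits of the LRRC8 anion channel 2 fell, against 0.339% of all genes, with a median over the 5 of -0.12 that was 0.26 without MCL2.

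None of the genes known for either diagnosis in patients was called. Ccnd1, the gene of cyclin D1, was well above background in all 7, at 2.08, 2.39 and 1.55 in MCL1 to MCL3 and 1.78, 2.56, 2.57 and 0.65 in BL1 to BL4 (0.12 ± 0.62, adjusted p = 0.947), and the PCL mean was -0.42. Ccnd2 (-0.39 ± 0.58) and Ccnd3 (-0.60 ± 0.38), the other D cyclins, were also above background in both types without a call. Cd5 was at 2.87, -1.45 and 2.41 in MCL1 to MCL3 and 2.68, -0.61, -0.28 and -0.53 in BL1 to BL4, high in MCL1, MCL3 and BL1 and low in the rest, so both types held tumours of either kind. Sox11 did not rise well above background in any tumour. For Burkitt lymphoma, Bcl6 was at -1.75, -2.10 and -3.38 in MCL1 to MCL3 and -1.23, -2.08, -2.27 and -1.04 in BL1 to BL4, with overlapping groups (-0.76 ± 0.56, adjusted p = 0.555), and Mme and Tcl1 did not rise well above background in any tumour. Id3 (-0.74 ± 0.38), Tcf3 (-0.67 ± 0.42) and the survival gene Bcl2 (0.30 ± 0.52) did not pass, with adjusted p from 0.345 to 0.827. Of the 5 and 6 label genes tested, 0 were called for either diagnosis (limma), and 0 also had non-overlapping arrays; at an unadjusted p under 0.05 the counts were 0 and 0.

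The genes that define the model did not pass the test. Myc was at 4.71, 4.44 and 4.88 in MCL1 to MCL3 and 4.22, 4.91, 3.90 and 4.02 in BL1 to BL4 (0.41 ± 0.32, adjusted p = 0.579), and whether the probe reads the transgene was not tested. Trp53 was at -2.92, -1.23 and -1.47 in MCL1 to MCL3 and -1.03, -2.11, -1.12 and -0.60 in BL1 to BL4 (-0.66 ± 0.63, adjusted p = 0.662), lowest in MCL1. Of 9 Myc, Max and Mxd network genes and 55 Myc-driven ribosome biogenesis genes 0 were called (limma; 1 and 2 at an unadjusted p under 0.05), with medians of -0.01 and -0.05.

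All 22 mature B cell identity genes were well above background on all 7 arrays, and 0 were called (limma; 2 at an unadjusted p under 0.05). Cd79a, a signalling chain of the B cell receptor, was at 4.15, 4.87 and 4.79 in MCL1 to MCL3 and 5.01, 4.97, 5.34 and 4.74 in BL1 to BL4. Its groups overlapped, and the list's median of -0.39 was -0.13 without MCL1, which had the lowest Cd79a. Of 13 germinal centre genes tested 0 were called (limma; 0 at an unadjusted p under 0.05), with a median of -0.05, and the highest summed level of the 16 markers was in BL3 (27.6) and the lowest in BL2 (17.02). Of 20 plasma cell genes 0 were called (limma; 0 unadjusted), with a median of 0.27.

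Precursor B cell genes varied widely between tumours of a type. Vpreb3, a chaperone of the B cell receptor assembly, was at -0.51, 6.87 and 5.31 in MCL1 to MCL3 and 4.37, 6.94, 6.89 and 7.25 in BL1 to BL4. Cd93, a receptor of immature B cells, was at -4.20, 4.03 and 0.87 in MCL1 to MCL3 and 3.78, 3.95, 1.04 and 2.90 in BL1 to BL4, and Ebf1, the B lineage factor, at -1.55, 2.05 and 1.25 in MCL1 to MCL3 and 1.42, 2.25, 2.88 and 3.11 in BL1 to BL4. MCL1 was the lowest of the 7 for all 3 genes, by 4.88 log2 units for Vpreb3. The list's median was -1.63 over 8 genes tested and -0.41 without MCL1. None but Dntt was called (12.5%, against 7.27% of all genes). The summed level of 16 markers was 8.23 in MCL1, 158.4 in MCL2 and 51.4 in MCL3, against 47.2 to 193.4 in BL.

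MCL1 stood apart in other lists as well. Relative to the genes' own means, its medians were -0.71 for mitosis and spindle, -0.80 for replication-dependent histones and -0.43 for DNA replication, against 0.26, 0.31 and 0.15 in MCL2. Without MCL1 the median differences of these lists were 0.01, 0.09 and -0.06. MHC class I and class II presentation had medians of 0.87 and 0.88 in MCL1, and their median differences of 0.12 and 0.40 were -0.32 and 0.04 without it (class I also turned without BL2, to -0.05). Ciita, the activator of the class II genes, was at 1.06, -0.06 and -0.39 in MCL1 to MCL3 and -1.39, -1.46, -1.16 and -0.79 in BL1 to BL4 and was the highest in MCL1, but MCL2 and MCL3 also lay above every BL tumour (1.40 ± 0.42, adjusted p = 0.0737). H2-Ob, a subunit of the peptide-loading modulator H2-O, did not overlap either (0.46 ± 0.20, adjusted p = 0.244). Of the 16 class II genes 0 were called (limma; 3 at an unadjusted p under 0.05).

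**Figure D5:**
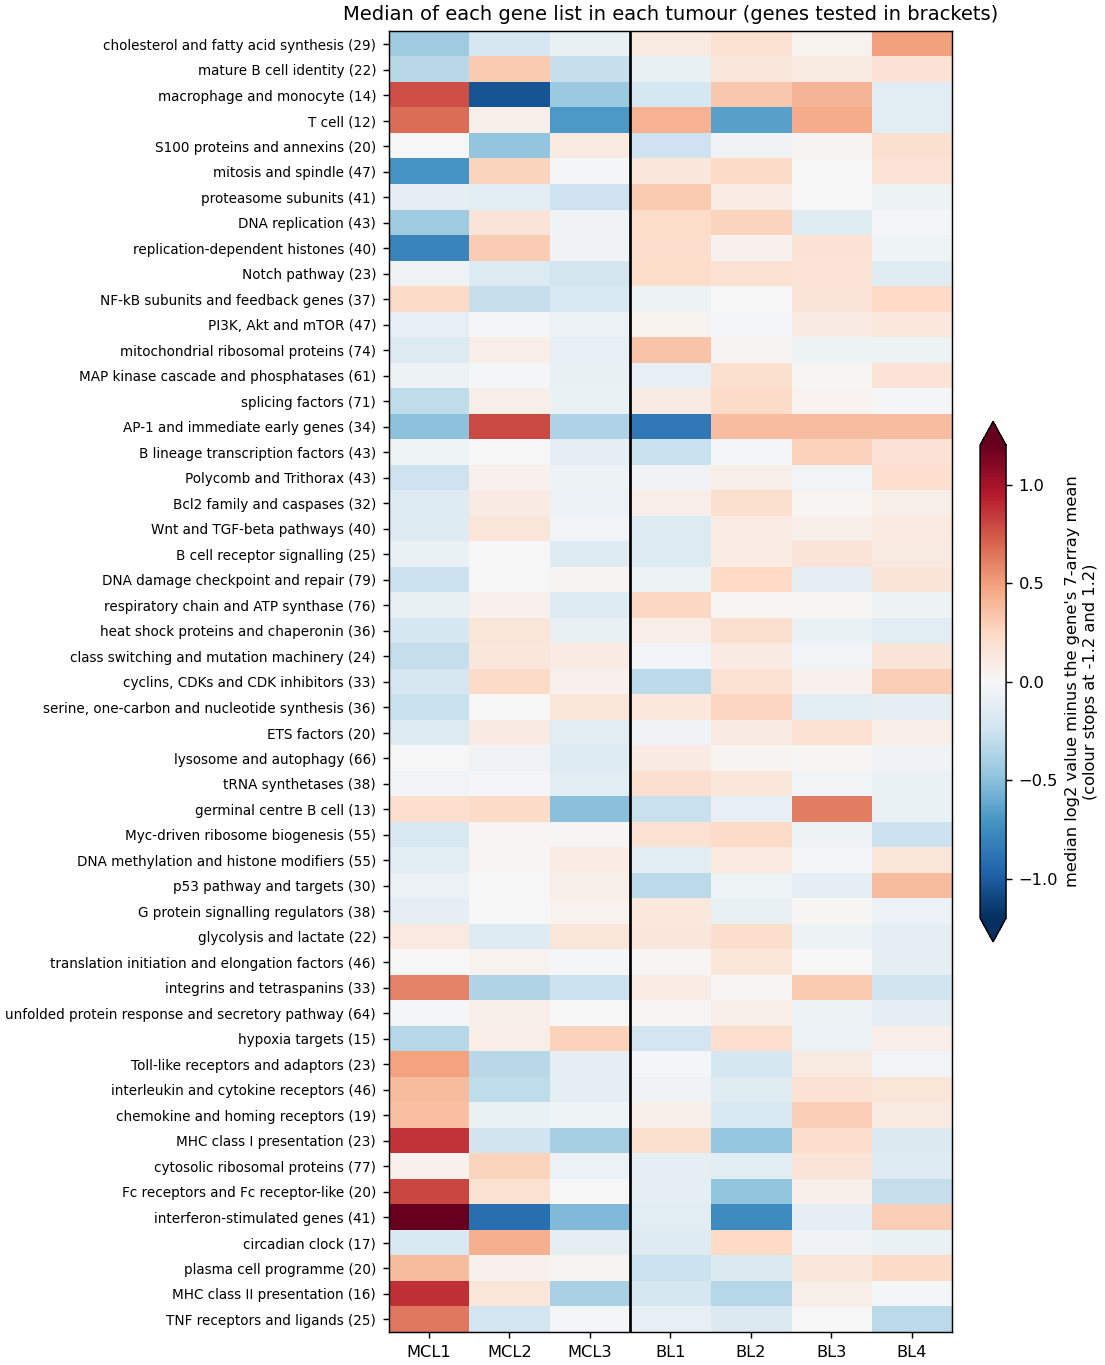
Median of the lists of at least 12 tested genes, with 1 list left out (rows, number tested in brackets, ordered by the difference between types) in each tumour (columns), as the log2 value minus the gene's 7-array mean, from blue (low) to red (high). MCL1 stands apart in the interferon, MHC, mitosis and histone rows, and cholesterol and fatty acid synthesis is blue in all 3 MCL tumours and red in all 4 BL tumours.

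Of the pathway lists, cholesterol and fatty acid synthesis had the lowest median difference. All 29 genes tested had a negative difference, with a median of -0.48, against 7808 of all 16248 genes with a negative difference and a median of 0.02. The median relative to the genes' own means was -0.43, -0.20 and -0.09 in MCL1 to MCL3 and 0.11, 0.18, 0.04 and 0.49 in BL1 to BL4. None of the 29 passed the test (limma; 8 at an unadjusted p under 0.05), and the arrays did not overlap for 6, all lower, against 4.03% of all genes. Mvd, which makes isopentenyl diphosphate, was at -0.33, -0.56 and -0.43 in MCL1 to MCL3 and 0.18, 0.25, 0.66 and 0.70 in BL1 to BL4 (-0.89 ± 0.26, adjusted p = 0.0711). Fdps, the farnesyl diphosphate synthase, was at 2.16, 2.46 and 2.78 in MCL1 to MCL3 and 3.29, 2.99, 3.26 and 3.93 in BL1 to BL4 (-0.90 ± 0.29, adjusted p = 0.102). Hsd17b7, which removes a keto group late in the pathway, was at -1.91, -1.23 and -1.41 in MCL1 to MCL3 and 0.14, -0.67, -0.93 and -0.47 in BL1 to BL4 (-1.04 ± 0.33, adjusted p = 0.0981). In each of the 3 the highest MCL tumour was below the lowest BL tumour. The list's median lay between -0.55 and -0.37 with any of the 7 tumours left out, and was -0.43 after normexp correction, -0.40 in the authors' values and -0.44 with arrays centred on cytosine content and level.

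Of 41 proteasome subunits tested 32 had a negative difference, the median was -0.25 and -0.12 without BL1, and 6 did not overlap, all lower (4.03% of all genes were lower without overlap); 0 were called (limma) and 6 had an unadjusted p under 0.05. Psmc3, an ATPase of the regulatory particle, had the smallest p among them at 5.24, 4.74 and 5.25 in MCL1 to MCL3 and 5.67, 5.77, 5.66 and 5.57 in BL1 to BL4 (-0.59 ± 0.19, adjusted p = 0.106). BL1 held the highest list median (0.31), and those of the other 6 tumours ranged from -0.25 to 0.09. Mitochondrial ribosomal proteins had a median of -0.19 over 74 genes (-0.08 without BL1), the respiratory chain -0.10 over 76 with 8 lower and 1 higher without overlap (-0.05 without MCL3), and splicing factors -0.18 over 71 with 9 lower and 2 higher (-0.06 without MCL1). Of the 52 lists with at least 12 genes tested, the median moved by over 1.5 times or turned its sign for 50 when some 1 tumour was left out, and turned its sign for 26. Glycolysis (22 genes, median -0.02), translation factors (46, -0.01) and tRNA synthetases (38, -0.06) had medians near that of all genes. B cell receptor signalling had 0 called of 25, NF-kB subunits and feedback genes 0 of 37, Bcl2 family and caspase genes 0 of 32, and DNA damage checkpoint and repair 0 of 79 (limma; 1, 3, 2 and 2 at an unadjusted p under 0.05), with medians between -0.20 and -0.11. Over all 66 lists, 1913 distinct members were tested, 31 rose and 9 fell (2.09%, against 7.27% of all genes). With every array centred within bins of cytosine content, a setting chosen after the data were seen, 21 rose and 23 fell. With centring on cytosine content and level, also chosen afterwards, 12 rose and 7 fell. The part of probe composition in the excess of rises among list members was not tested. Without either centring the members' median level of 1.83 was above that of all genes, -0.02.

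Of 17 circadian clock genes tested 12 had a positive and 5 a negative difference, with a median of 0.27 that was 0.59 without MCL1 and 0.08 without MCL2. The 3 with the smallest p overlapped between the types. Arntl, the activator Bmal1, was at -1.58, 0.22 and -0.75 in MCL1 to MCL3 and -0.12, 1.44, 1.19 and 1.00 in BL1 to BL4 (-1.58 ± 0.46, adjusted p = 0.0685). Its repressor Nr1d2 was at -1.19, -0.31 and -0.75 in MCL1 to MCL3 and -1.14, -1.51, -1.71 and -1.37 in BL1 to BL4 (0.68 ± 0.24, adjusted p = 0.142), and the repressor Cry1 differed by 0.75 ± 0.34 (adjusted p = 0.264). None of the 17 passed (limma; 3 at an unadjusted p under 0.05), and the labels give no time of day for the samples.

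Some probes were measurable in 1 type alone. The counts and values here are those of single probes, and other probes of the same genes were not considered. Probes of 104 genes were well above background on all 3 MCL arrays and on none of the BL arrays, 46 of them named, and probes of 20 genes, 15 named, on all 4 BL arrays and on none of the MCL arrays. For these the ratio of processed signals is a lower bound, taken against the lowest signal that counted as well above background. Among those seen in BL, F13a1, the A subunit of coagulation factor XIII, was at least 5.65-fold higher, Prrg1 at least 4.09-fold, the ketogenic lyase relative Hmgcll1 at least 4.00-fold, the granule enzyme Mpo at least 3.88-fold and the cytokine Il1b at least 2.33-fold. F13a1, Fcna, Mpo and Il1b are genes of monocytes, macrophages or granulocytes, and the marker sums given above overlapped between the types. The macrophage and monocyte list had a median of -0.36 with 10 of 14 negative, and -0.93 to -0.05 with 1 tumour left out. The granulocyte list had -0.59 with 4 of 6 negative, and -1.11 to 0.10 with 1 tumour left out. Its 1 called gene, Elane, was higher in MCL. The part of such cells in these values was not tested. Among those seen in MCL, Cox17 was at least 7.39-fold higher, the NK receptor ligand Clec2g at least 5.54-fold, Gabra4 at least 3.57-fold and the Polycomb protein Cbx7 at least 3.57-fold. These bounds do not carry over to the authors' values. There the log2 difference, MCL minus BL, was -1.63 for F13a1, 1.44 for Cox17 and 1.27 for Cbx7, each smaller than its bound. Genes of this paragraph other than Prrg1, Hmgcll1, Clec2g, Gabra4 and Cbx7 were chosen after their values had been seen. Without BL1 the counts were 261 in MCL and 34 in BL, and without MCL1 161 and 100.

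Genes of single chromosomes shifted together in single tumours. Among genes with levels above the median, the 302 of chromosome 10 had a median of -0.56 in BL1 relative to their own means and of -0.08 to 0.30 in the other 6 tumours. In BL1 chromosomes 5 (0.46) and 6 (0.45) were high, in BL2 chromosome 12 was high (0.51) and 13 low (-0.50), and in MCL1 and MCL3 chromosome 12 went opposite ways (0.38 and -0.44). Chromosome 3 was high in BL4 (0.34), and chromosome 14 in MCL3 (0.32). Chromosome 11, which carries Trp53, was high in BL1 and BL4 (0.31 and 0.32) and low in BL3 and MCL2 (-0.32 and -0.25). None of these shifts was shared by all tumours of a type. The largest median difference between the types was that of chromosome 3, at -0.23, where 7 of these genes were called higher and 2 lower. S100a4 and S100a6 lie there, and BL4, with the shifted chromosome 3, had the second highest BL value of both. The part of the chromosome in their difference was not tested.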

How the data were processed

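RNA of 11 lymph node lymphomas was labelled with one dye and hybridised to 1 array each. Per the file headers, the deposited scanner files hold spot intensities extracted by version 10.7.3.1 of the Agilent software Feature Extraction, with mm9 as the mouse build. The authors also deposited a table of log2 values, with a median per array of 7.25 to 7.26. Its values rank exactly as the median spot signal before background subtraction does (Spearman 1 on every array), and no source used here states its scaling. From the processed signal, log2 values were taken relative to each array's 75th percentile, spots with an outlier flag were left out, spots of a probe were averaged, and probes had to be well above background on all 7 MCL and BL arrays. For each gene the probe with the highest mean level was tested with limma over all 11 arrays and 3 types (8 residual degrees of freedom), with Benjamini-Hochberg adjustment over 16248 genes and a threshold of 0.05. The number of arrays limits the precision.

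The comparison, the gene lists and the settings were chosen with earlier results of these data known, and the lists are described by counts and medians only. Named genes included the 15 with the largest difference in each direction among called genes whose MCL and BL arrays did not overlap. For these the lack of overlap was a condition of choice and adds no support. The others were called members of lists, the label and model genes and the genes with the smallest adjusted p. In lists without a call they were the 3 members with the smallest p. The fitting code was tested on simulated data. A summed level of a marker list adds the linear levels of its members' brightest probes. Promoter windows came from RefSeq (GRCm38.p6) and probe bases from the scanner files. One gene and 1 list are not reported here.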

Additional observations from a re-analysis of the deposited data

Results flagged for a closer look

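Within the 4 BL tumours, single values lay far from the others for 5 of 93 genes examined, by Dixon's criterion. Chance meets it in about 1 in 20 groups, so about as many would be met by chance. For Cd300a, BL3 was the lowest at -4.94, against -4.30 for the nearest tumour. For the probe A_55_P2064412, BL3 was the highest at -0.95, against -1.199. For H2-Ob, BL3 was the lowest at 1.98, against 2.31. BL1 had the highest Cd5, the B-1 and T cell surface protein, at 2.68, against -0.28. BL1 also had the lowest Vpreb3, at 4.37, against 6.89.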

How the results depend on the processing

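Of 1182 genes called, the count was 450 with the 7 arrays alone, 122 after normexp, 686 with the authors' values, 470 at an adjusted p under 0.01 and 692 to 1230 with 1 tumour left out. Differences of at least 2-fold, 560 in all, numbered 369, 112 and 208 in the first 3 of these settings, 366 after quantile normalization and 426 to 681 with 1 tumour left out. Called list members, 40 in all, numbered 9 with the 7 arrays alone, 7 after normexp, 19 without a filter on dim probes and 20 to 50 with 1 tumour left out. Genes with a probe measurable in 1 type alone, 124 in all, numbered 164 to 295. Of settings chosen after seeing the data, testing the brighter probes alone (8593 genes) gave 144 genes, 83 at 2-fold and 8 list members, and centring on cytosine content and level gave 532, 290 and 19. Centring on cytosine content alone gave 897 genes, 86.3% of them higher against 95.3%. Tle1 reversed to -0.25 with the mean of its probes. Of 68 called genes the text may name, 16 kept their call in every setting and 39 lost it without at least 1 tumour; the causes were not tested. Signal over background limits the dim genes.

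Same-numbered MCL and BL tumours correlated at 0.0313 to 0.173 in their deviations. Differently numbered tumours were not set beside them, so these values do not show whether the numbers pair tumours. With the replicate number as a block 477 genes and 15 list members were called.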
